A study of Mus musculus with 2 samples.

Results

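Rod bipolar cells were taken from 2 single-cell RNA libraries of mouse retina as the cells that carried RNA of the ON bipolar class together with Prkca, Sebox, Car8 and Vstm2b. A cell entered if it held at least 300 genes, at least 1000 UMIs (unique molecular identifiers, each standing for 1 captured RNA molecule) and no more than 20% mitochondrial UMIs. The 4 Müller glia genes Glul, Rlbp1, Apoe and Slc1a3 had to sum to under 0.5% of its UMIs, and Trpm1, Isl1, Grm6 and Pcp2 together to at least 3 UMIs. Prkca, Sebox, Car8 and Vstm2b together had to reach 4 UMIs and to exceed both Htr3a+Kcng4+Sox6 and Cck+Cnmd+Tnnt1, which are summed genes of ON cone bipolar types. This left 1081 rod bipolar cells of 23625 deposited barcodes, 824 in the library titled Muller and 257 in the library titled MullerControl. The values of these rule genes chose the cells, so they are given as a description with no test.

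Both libraries came from retinas of mice of strain B6.Cg-Gt(ROSA)26Sortm9, with the allele (CAG-tdTomato)Hze/J, a CAG-driven tdTomato reporter at the Rosa26 locus. The mice were 14 weeks old and had received an AAV (adeno-associated virus) 8 weeks earlier. The labels do not say what either virus carried, which promoter it used or how many mice were pooled. Cells positive for tdTomato were sorted in a positive fraction of about 10% for the group the protocol calls control (120000 cells collected) and about 4.9% for the group it calls test (60000 cells collected), and 27000 cells were loaded for each. MullerControl was taken as that control and Muller as that test. There was 1 library per group, so no difference between the libraries was tested, and each interval on such a difference is a 95% interval that covers counting error only.

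Rod bipolar cells are the interneurons that receive rod photoreceptor signals and pass them to AII amacrine cells. In darkness, glutamate from rods acts on the receptor mGluR6 (Grm6), whose Go protein keeps the cation channel TRPM1 shut. Light lowers glutamate, TRPM1 opens and the cell depolarises, which is why these cells belong to the ON class. Protein kinase C alpha, the product of Prkca, is the usual antibody marker of the type.

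The libraries held 12316 barcodes with 25622379 UMIs (Muller) and 11309 barcodes with 23549118 UMIs (MullerControl), of which 8068 and 7769 passed the depth and mitochondrial limits. Rods, defined by rod transcripts at 2% or more of UMIs and fewer than 3 UMIs of the ON genes, made up 27.8% and 63.1% of the passing cells. The libraries shared 40 barcode sequences, and 2 rod bipolar cells carried a barcode that the other library also held. The rod bipolar cells summed to 3460195 UMIs in Muller and 1299436 in MullerControl. Levels below are CPM, each gene's count scaled so that the sum over genes is 1000000.

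In Muller, rod bipolar cells were 10.2% of passing cells (exact Clopper-Pearson interval 9.56 to 10.9%), against 3.31% (2.92 to 3.73%) in MullerControl. Among ON bipolar cells the shares were 25.9% (24.4 to 27.5%) of 3176 and 26.7% (23.9 to 29.6%) of 963. The share among all passing cells was thus about 3 times larger in Muller, whereas the shares among ON bipolar cells had overlapping intervals. Both shares were taken after a fluorescence sort whose positive fraction differed between the groups, and the rod share of passing cells moved in the opposite direction; their part in the difference was not tested.

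The label was set beside Tpbg, 1 of 10 listed rod bipolar genes that the rule did not use. Tpbg, which encodes trophoblast glycoprotein (5T4) and is listed among rod bipolar markers, stood at 353 CPM in Muller and 252 CPM in MullerControl. It stood at 20.7 and 24.1 CPM in ON cone bipolar cells chosen by Htr3a, Kcng4 and Sox6 (the Htr3a set, 567 and 169 cells), and at 10.3 and 4.52 CPM in cells chosen by Cck, Cnmd and Tnnt1 (the Cck set, 465 and 150 cells). When each cell was thinned to 1000 UMIs, Tpbg was seen in 29.9% (26.7 to 33.1%) and 18.3% (13.8 to 23.6%) of rod bipolar cells, and in 0.579% and 0.0408% of rods, which stand here for free RNA. Without thinning, the shares were 61.9% and 56.8% of rod bipolar cells, at median depths of 4284 and 5545 UMIs, and 0.846% and 0.163% of rods, at 1571 and 1730 UMIs. The Tpbg level and share therefore lay above the rod background in both libraries. Not all 10 listed genes went this way. As given below, 8 were called higher and 2 lower than in the Htr3a set, and 8 and 1 against the Cck set. The list was written with earlier results of these data known, so Tpbg is no independent evidence for the label.

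Within the 1081 cells, the sum of the 4 rule genes fell into a broad upper range and a low tail. Its median was 20 UMIs in Muller (4 to 50) and 25 UMIs in MullerControl (4 to 62). A range of 10 UMIs or more, chosen after this distribution was seen, held 554 and 168 cells with median sums of 25 and 32. The low range of 4 to 9 UMIs held 270 cells (32.8%) and 89 cells (34.6%). All 4 rule genes were seen in 572 and 159 cells, and 1 gene alone in 16 and 6 cells.

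**Figure D1:**
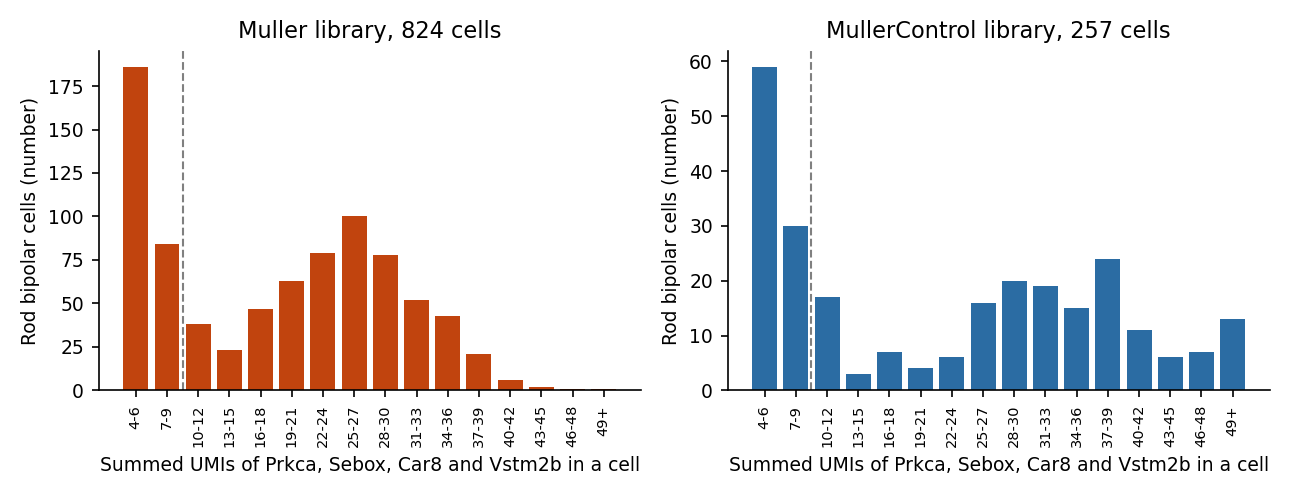
Number of rod bipolar cells (y axis) by the summed UMIs of Prkca, Sebox, Car8 and Vstm2b per cell (x axis, bars 3 UMIs wide, with a wider last bar), 1 panel per library. Each library has many cells at 4 to 6 UMIs (186 and 59 cells) and a broad upper group, with a peak of 100 cells at 25 to 27 UMIs in Muller and of 24 cells at 37 to 39 UMIs in MullerControl. The left edge is the rule's minimum of 4 UMIs. Below it, not drawn, 803 and 203 ON bipolar cells had 1 to 3 UMIs.

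The low range differed from the upper range in genes that the rule did not use. Tpbg stood at 81.5 and 46.1 CPM in the low range (Muller and MullerControl) and at 442 and 321 CPM in the upper range. After thinning it was seen in 13% and 6.74% of the low range and 38.1% and 24.4% of the upper range. Strip2, a subunit gene of the striatin-interacting phosphatase and kinase complex, stood at 115 and 61.5 against 214 and 340 CPM. Scgn, a calcium sensor of cone bipolar types, went the other way, with 440 and 569 CPM in the low range and 33.8 and 45.2 CPM in the upper range. Both libraries gave the same order for each of these 3 genes.

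RNA of rods, cones, Müller glia and amacrine cells was also higher in the low range. The 12 rod markers summed to 8636 and 12972 CPM in the low range and 3339 and 4716 CPM in the upper range. Cone markers summed to 803 and 2494 CPM against 346 and 762 CPM, Müller glia markers to 1417 and 695 against 433 and 157 CPM, and amacrine markers to 827 and 348 against 122 and 21 CPM. Horizontal cell markers went the other way, with 128 and 105 CPM against 151 and 140 CPM, and microglia markers differed by library, with 21 and 73.8 CPM against 93.0 and 22.6 CPM. Low-range cells were shallower, with median depths of 2215.5 and 2852 UMIs against 4610.5 and 5971 UMIs, and had more mitochondrial RNA, with medians of 8.38% and 8.24% against 5.38% and 6.47%. The upper range thus carries Tpbg and Strip2, rod bipolar genes outside the rule, at higher levels than the low range, while the low range holds more RNA of those 4 classes. Upper-range values are given below for the named genes that this range reversed and for the library ratios it moved most. What the low range is made of was not tested.

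**Figure D2:**
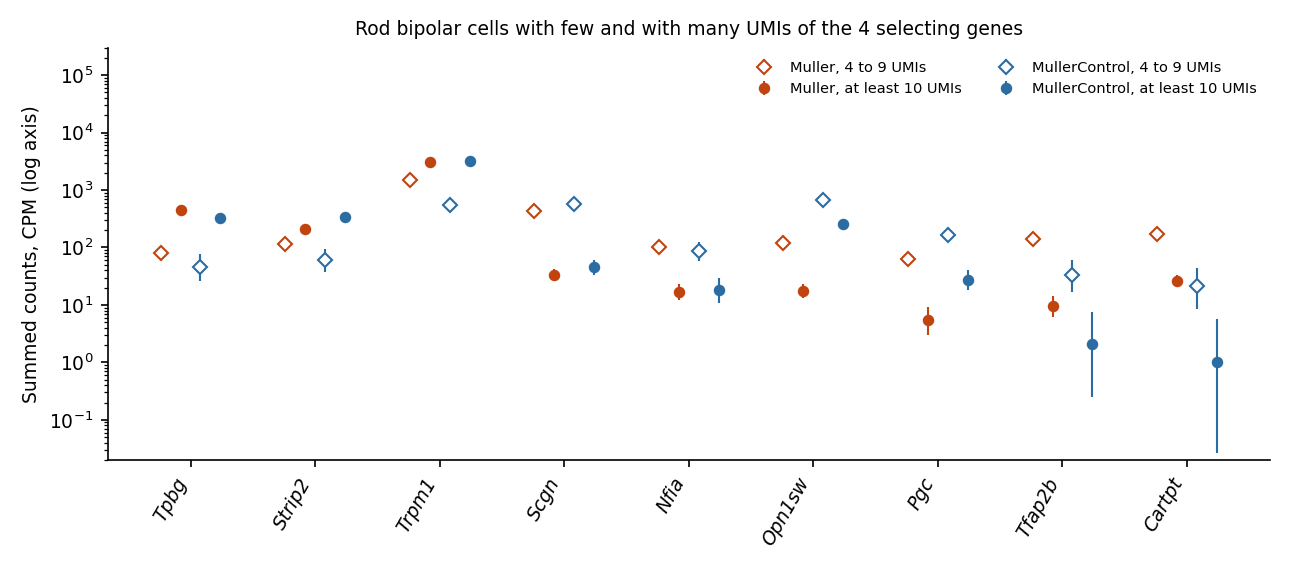
Level in CPM (y axis, log scale) of 9 genes in rod bipolar cells with 4 to 9 UMIs (open diamonds) and with 10 or more UMIs (filled circles) of the 4 rule genes, by library; bars are exact Poisson 95% intervals. Tpbg, Strip2 and Trpm1 are higher in the upper range of both libraries, and Scgn, Nfia and Opn1sw are higher in the low range.

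Cells just outside the rule were set beside those just inside it. The 116 and 30 ON bipolar cells with 3 UMIs of the 4 genes had Trpm1 at 1328 and 1040 CPM and Scgn at 509 and 675 CPM. The 70 and 25 with 4 UMIs had Trpm1 at 1218 and 250 CPM and Scgn at 580 and 813 CPM. Of cells meeting the other limits, the Müller glia limit alone left out 12 and 2, and the order of the 3 sums 13 and 4.

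Depth per cell was lower in Muller, with a median of 4284 UMIs (1010 to 20721) and 2064 genes, than in MullerControl, with 5545 UMIs (1080 to 14483) and 2449 genes. Median mitochondrial shares were 5.56% and 6.65%, and Malat1, a nuclear long noncoding RNA, took 4.88% and 3.85% of UMIs. The Htr3a and Cck sets were shallower than the rod bipolar cells in both libraries, with medians of 3757 and 3940 UMIs in Muller and 4606 and 4483 UMIs in MullerControl. The highest scores of the doublet caller Scrublet, cut at the rate expected for the number of cells, took in 99 (12%) and 34 (13.2%) rod bipolar cells. They were kept in the main results. The caller's automatic threshold marked 2 and 0 cells of the whole libraries, and whether the scored cells are doublets was not tested. Leaving them out moved 4 of the named ratios between libraries given below, reversed 1 (Pde6h) and left 15 the same.

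The genes of the rule stood as follows. Prkca was at 1176 CPM in Muller and 1364 CPM in MullerControl, and at 21.6 and 8.02 CPM in the Htr3a set. Sebox, a homeobox gene, stood at 1237 and 1037 CPM, against 13.6 and 2.67 CPM in that set. Car8, an inactive member of the carbonic anhydrase family, stood at 1368 and 1444 CPM. Vstm2b, which encodes an immunoglobulin-domain membrane protein, stood at 690 and 660 CPM, and at 94.4 and 75.4 CPM in the Cck set, its highest level among the 2 sets and rods. These 4 separate the sets because the rule asked it of them.

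After thinning to 1000 UMIs, Prkca was seen in 68.0% and 59.9% of rod bipolar cells and in 8.82% and 7.55% of rods. Shares for Sebox were 65.2% and 56.0% (rods 2.85% and 1.12%), and for Car8 67.4% and 68.1% (rods 1.87% and 0.796%). Vstm2b was seen in 49.6% and 44.7% (rods 1.83% and 0.245%). Prkca had the highest share in rods of the 4, in both libraries.

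Of the ON genes in the rule, Pcp2, which encodes a regulator of Go proteins also known from Purkinje cells, was the most abundant, at 11176 and 11152 CPM. It stood at 3638 and 2679 CPM in the Htr3a set and 777 and 1091 CPM in the Cck set. Trpm1 stood at 2650 and 2587 CPM, against 1096 and 1056 and 1817 and 1833 CPM. Grm6, the mGluR6 gene, stood at 401 and 484 CPM, below the Cck set in both libraries (721 and 684 CPM). Against the Htr3a set (436 and 418 CPM), Grm6 was lower in Muller and higher in MullerControl. Isl1, a LIM homeobox gene, stood at 981 and 879 CPM.

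In GRCm38 (GENCODE vM21), Prkca lies on chromosome 11 from 107933387 to 108343928 and Sebox on the same chromosome from 78503447 to 78505081. Car8 spans chromosome 4, 8143362 to 8239041, and Vstm2b chromosome 7, 40898328 to 40930594. Trpm1 spans chromosome 7, 64153835 to 64269775, Tpbg chromosome 9, 85842380 to 85847040, and Strip2 chromosome 6, 29917012 to 29959681. These are whole gene spans, and the counts do not tell which exons the reads came from.

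The 250 bases before the start of Trpm1, the channel gene, and of Tpbg and Strip2, 2 rod bipolar genes outside the rule with large differences from both comparison sets described below, are shown because promoters of bipolar genes are known to be bound by OTX2 and CRX, homeodomain factors with the core site TAATCC. Sequences are RefSeq promoters of GRCm38.p6, plus strand, at chr7:64153585-64153834, chr9:85842130-85842379 and chr6:29916763-29917012, and capitals mark a TAATCC match on either strand.
Trpm1: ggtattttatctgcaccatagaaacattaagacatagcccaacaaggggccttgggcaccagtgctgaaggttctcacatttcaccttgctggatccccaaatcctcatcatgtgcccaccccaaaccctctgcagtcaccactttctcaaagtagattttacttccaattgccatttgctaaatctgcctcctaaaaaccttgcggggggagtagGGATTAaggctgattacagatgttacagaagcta
Tpbg: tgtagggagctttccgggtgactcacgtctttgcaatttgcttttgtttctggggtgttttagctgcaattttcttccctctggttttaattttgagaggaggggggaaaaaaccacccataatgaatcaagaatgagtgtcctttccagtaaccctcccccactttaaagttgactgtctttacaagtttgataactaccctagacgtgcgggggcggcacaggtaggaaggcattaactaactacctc
Strip2: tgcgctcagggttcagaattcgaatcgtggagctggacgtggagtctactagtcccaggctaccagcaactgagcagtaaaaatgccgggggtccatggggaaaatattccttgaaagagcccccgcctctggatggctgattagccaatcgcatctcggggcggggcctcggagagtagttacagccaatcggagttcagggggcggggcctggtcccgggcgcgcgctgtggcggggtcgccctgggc

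The Trpm1 window held 1 match, read as GGATTA on the plus strand 34 bases before the start, and the other windows shown held none. A further Trpm1 window (chr7:64185209-64185458) and a further Tpbg window, not shown, held no match. TAATCC occurred in 6.25% of all 32851 promoter windows of this length, in 5.54% of the 10045 windows of genes tested below, and in 2.79% (5 of 179) of the windows of genes at least 4-fold higher in rod bipolar cells than in both sets (122 of the 160 such genes, which include 4 rule genes, had a window). TAATTA, a core site of LIM homeodomain proteins, occurred in 4.84%, 2.33% and 0.559% of the same windows, and CATATG, an E-box of the kind bound by neural bHLH factors, in 3.46%, 1.70% and 1.68%. The 3 motifs were searched as written and on the other strand, and TAATCC and TAATTA share their first 4 letters. A match is a description of the letters only.

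Rod bipolar cells were then compared with each set over all genes, on UMIs summed per library, with edgeR's quasi-likelihood test, the library as block and Benjamini-Hochberg adjustment (n = 2 libraries). Differences are on the log2 scale, positive where rod bipolar cells were higher. The standard error (SE) was derived from the test, as the absolute difference divided by the square root of its F statistic. All 3 sets were picked by expression in these same cells, so the adjusted p describes chosen cells. The Cck set also carried genes of OFF cone bipolar cells and is named by its rule genes. Against the Htr3a set, 1340 of 10366 genes (12.9%) were higher and 1378 (13.3%) lower at an adjusted p under 0.05. Against the Cck set, 1029 of 10047 (10.2%) were higher and 892 (8.88%) lower. Without TMM scaling the median of all genes shifted from near 0 to −0.13 and −0.15, and the share of calls that were higher went from 49.3% to 35.9% and from 53.6% to 34.1%. No called gene of the lists below changed sign, while genes near 0 that were not called could, such as Nfix and Syt1 against the Cck set (−0.12 and −0.11 without TMM).

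Of the 10 rod bipolar genes outside the rule, 8 were higher and 2 lower than in the Htr3a set (median 2.0), and 8 were higher and 1 lower than in the Cck set (median 1.07), against medians near 0 over all genes. DESeq2 called 7 and 6 of them higher. This count and each list count below stand beside the edgeR shares over all genes. Those were 12.9% higher and 13.3% lower against the Htr3a set, and 10.2% and 8.88% against the Cck set. No list was tested as a set. Among the members described here, the largest differences were those of Strip2 and Tpbg against the Htr3a set and of Tpbg and Prdm8 against the Cck set. This list was written with earlier results of these data known, so its direction is no independent evidence.

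Tpbg, with the levels given above, was higher than in the Htr3a set by 4.00 ± 0.19 (SE, edgeR adjusted p = 4.53e-93) and than in the Cck set by 5.35 ± 0.21 (edgeR adjusted p = 4.03e-138). With n = 2 libraries, the spread behind each SE and adjusted p was estimated largely from all genes together. The size of the p therefore depended on the fit. Against the Cck set it was 7.45e-73 without TMM scaling (edgeR adjusted p) and 1.86e-34 with DESeq2 (adjusted p). Against the Htr3a set the p of named genes depended on TMM scaling far more. For Dusp4, described below, the edgeR adjusted p was 8.85e-128 with TMM and 1.59e-08 without, and the DESeq2 adjusted p was 5.63e-31. In rods Tpbg was at 4.81 and 0.827 CPM. Tpbg thus separated rod bipolar cells from both sets in each library by more than 10-fold in level.

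Strip2 stood at 190 and 270 CPM, against 9.87 and 10.7 CPM in the Htr3a set and 47.8 and 75.4 CPM in the Cck set. Its difference was 4.5 ± 0.21 (SE) against the first and 2.07 ± 0.15 against the second. Prdm8, a transcriptional repressor that rod bipolar cells are known to need, stood at 247 and 253 CPM and was higher by 3.06 ± 0.17 and 3.13 ± 0.16. Rpa1, a subunit of the single-strand DNA binding protein RPA, stood at 358 and 388 CPM and was higher by 2.47 ± 0.16 and 0.98 ± 0.12. For Strip2 and Rpa1 the Cck set therefore stood nearer to the rod bipolar cells than the Htr3a set did.

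Cabp5, a calcium-binding protein of several bipolar types, differed in direction between the sets. It stood at 1266 and 1335 CPM in rod bipolar cells, 2590 and 2220 CPM in the Htr3a set (−0.76 ± 0.18) and 543 and 769 CPM in the Cck set (1.17 ± 0.10). Bhlhe23, a bHLH factor required for rod bipolar maturation, stood at 299 and 254 CPM and was higher by 1.53 ± 0.15 and 0.54 ± 0.12, the second of which DESeq2 did not call. Gabrr1, the rho1 subunit of the GABA-C receptor on bipolar axon terminals, stood at 386 and 332 CPM. It was higher than in the Htr3a set by 0.58 ± 0.14, with 0.28 ± 0.11 against the Cck set, where it missed the threshold (edgeR adjusted p = 0.0643). The partner subunit Gabrr2 stood at 212 and 161 CPM and was lower than in both sets, by −1.18 ± 0.14 and −0.84 ± 0.12. Gramd1b, a sterol transporter gene, was at 114 and 129 CPM, and DESeq2 called neither of its differences (0.49 and 0.86).

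**Figure D3:**
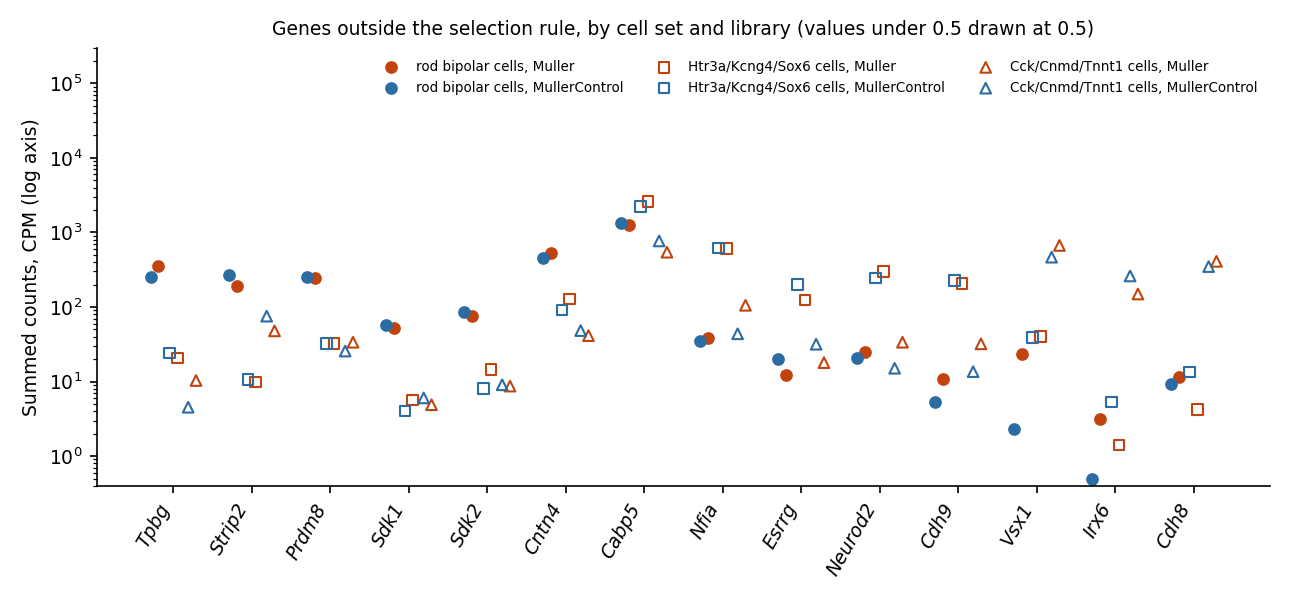
Level in CPM (y axis, log scale, values under 0.5 drawn at 0.5) of 14 genes outside the rule (x axis) in rod bipolar cells (filled circles), the Htr3a set (squares) and the Cck set (triangles), 1 point per library by colour. Tpbg stands above 100 CPM in the rod bipolar cells of both libraries and below 30 CPM in both sets, while Nfia, Neurod2 and Cdh9 are highest in the Htr3a set and Vsx1, Irx6 and Cdh8 in the Cck set.

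In the ON cascade, 7 of 10 tested genes outside the rule were higher than in the Htr3a set and 1 was lower (median 0.65), and 4 were higher and 1 lower than in the Cck set (median 0.08). Gng13, a G protein gamma subunit, stood at 3169 and 4102 CPM, against 2318 and 2298 CPM in the Htr3a set and 2542 and 2735 CPM in the Cck set (0.77 ± 0.20 and 0.59 ± 0.09). Gnb3, the beta subunit, was at 1788 and 1668 CPM and passed against neither set (edgeR adjusted p = 0.149 and 0.203). Rgs9bp, an anchor of RGS proteins, stood at 49.7 and 88.5 CPM and passed against neither set. Rgs7bp, the related anchor, was higher than in the Htr3a set by 0.65, which DESeq2 did not call, and lower than in the Cck set by −0.91.

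Further members are named after their values were seen. Gnao1, the alpha subunit of Go, was at 1261 and 1186 CPM, higher by 0.65 ± 0.16 and 0.90 ± 0.10. Gpr179, the orphan receptor that holds the RGS proteins at the dendritic tip, was higher by 0.77 ± 0.14 and 0.59 ± 0.11, and Rgs7, which speeds GTP hydrolysis by Go, by 1.04 ± 0.15 and 1.17 ± 0.14. Its relative Rgs11 was higher than in the Htr3a set (234 and 241 CPM against 93.1 and 107 CPM, 1.39 ± 0.15), with −0.03 ± 0.12 against the Cck set. Nyx, the gene of nyctalopin, was lower than in the Htr3a set, at 86.4 and 77.7 CPM against 225 and 226 CPM (−1.32 ± 0.14), and differed by −0.31 ± 0.14 from the Cck set (edgeR adjusted p = 0.121).

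Calcium and PKC genes split in direction, with 7 of 16 tested higher and 7 lower than in the Htr3a set and 4 higher and 6 lower than in the Cck set. Atp2b1, a plasma membrane calcium pump, lay between the sets, at 1657 and 1358 CPM against 2730 and 2674 CPM and 960 and 987 CPM (−0.72 ± 0.18 and 0.78 ± 0.10).

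Prkcb, the conventional PKC isoform next to Prkca in sequence, was low in rod bipolar cells, at 31.8 and 16.9 CPM against 54.1 and 69.5 CPM in the Htr3a set and 149 and 166 CPM in the Cck set. It was lower by −1.01 ± 0.20, which DESeq2 did not call, and by −2.37 ± 0.17. Cabp2 was at 91.6 and 51.6 CPM, with 1.85 and −1.67 against the 2 sets, and the first of these became −0.11 in cells with 10 or more UMIs of the rule genes. Cabp1, named after its values were seen, was higher than in the Htr3a set (2.32 ± 0.17) and lower than in the Cck set (−1.34 ± 0.12).

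Bipolar transcription factors were called higher for 5 and lower for 8 of 17 tested against the Htr3a set, and for 5 and 8 of 21 against the Cck set. Neurod4, a bHLH gene of bipolar development, stood at 676 CPM in each library and was lower by −0.69 ± 0.16 and −0.45 ± 0.10, the second of which DESeq2 did not call. Nfix, a nuclear factor I gene, stood at 56.4 and 34.6 CPM, with −2.59 against the Htr3a set and 0.02 against the Cck set. Pax6 was higher by 0.52 and 1.06 over all rod bipolar cells and reversed in the upper range (−0.74 against the Htr3a set), where amacrine markers summed to 122 and 21 CPM; DESeq2 called neither difference, and the part of amacrine RNA was not tested.

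The factors of cone bipolar types were low in rod bipolar cells, and are named after their values were seen. Nfia stood at 38.4 and 35.4 CPM against 612 and 619 CPM in the Htr3a set (−3.92 ± 0.17), and Neurod2 at 24.9 and 20.8 CPM against 299 and 246 CPM (−3.45 ± 0.17). Esrrg, an orphan nuclear receptor, stood at 12.1 and 20 CPM against 124 and 200 CPM (−3.21 ± 0.19), and Lhx4, a LIM homeobox gene, at 103 and 124 CPM against 557 and 611 CPM (−2.25 ± 0.15). In the upper range the differences were −4.95 for Nfia, −4.88 for Neurod2, −5.10 for Esrrg and −3.15 for Lhx4. These 4 set the rod bipolar cells apart from the Htr3a set. From the Cck set it was Vsx1, at 23.1 and 2.31 CPM against 669 and 466 CPM (−5.07 ± 0.16), and Six3, at 132 and 100 CPM against 891 and 708 CPM (−2.64 ± 0.12). Of the OFF cone bipolar list, 8 of 10 were lower than in the Cck set and 2 higher, with a median of −2.33, while DESeq2 called 3 of them lower.

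Among ribbon synapse and release genes, 5 of 24 were higher and 6 lower than in the Htr3a set, and 4 and 5 of 23 against the Cck set. DESeq2 called 3 higher and 3 lower against the first, and against the second 2, both higher. Syt1, the calcium sensor of release, stood at 2002 and 1818 CPM and passed against neither. Cplx3, the complexin of ribbon synapses, stood at 1856 and 1945 CPM and was higher by 0.55 ± 0.17 (SE, edgeR adjusted p = 0.00739) and 0.50 ± 0.09. Unc119, a lipid-binding carrier protein, was at 1298 and 1502 CPM, with 0.20 ± 0.17 and −0.29 ± 0.09, and DESeq2 called neither. Snap25, a SNARE gene, was at 1236 and 1397 CPM against 662 and 683 CPM in the Htr3a set (1.09 ± 0.16). Its smaller difference from the Cck set, 0.35 ± 0.10, was not called by DESeq2. Cplx4, named after its values were seen, was low at 127 and 164 CPM against 574 and 632 CPM in the Htr3a set (−1.95 ± 0.14).

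GABA and glycine receptor genes were higher for 4 and lower for 6 of 12 against the Htr3a set, and higher for 1 and lower for 7 of 12 against the Cck set (median −0.65), where DESeq2 called 3 of 12 lower. Gabrr3, a further rho subunit, was at 41.6 and 59.3 CPM, and its 1.66 against the Htr3a set was −0.40 in the upper range. Gabrr1 and Gabrr2, described above, lay on different sides of the Htr3a set.

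Voltage-gated and HCN channel genes were higher for 5 and lower for 7 of 16 against the Htr3a set, and higher for 8 and lower for 3 of 15 against the Cck set, where DESeq2 called 3 and 2. Over all genes, edgeR called 12.9% higher and 13.3% lower against the first set, and 10.2% and 8.88% against the second. Kcnma1, the large-conductance calcium-activated potassium channel, stood at 899 and 827 CPM and was higher by 0.87 ± 0.15 and 0.54 ± 0.10. Kcnc1, a fast Kv3 channel, was at 144 and 113 CPM and higher by 1.55 ± 0.17 and 1.76 ± 0.16. Cacna1h, a T-type calcium channel gene named after its values were seen, was lower at 49.1 and 58.5 CPM against 226 and 378 and 156 and 214 CPM (−2.28 ± 0.15 and −1.60 ± 0.14). The 2 potassium channel genes named were thus higher than in both sets, and the T-type gene lower.

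Adhesion and wiring genes were higher for 5 and lower for 12 of 24 against the Htr3a set and for 8 and 6 of 23 against the Cck set. Cntn4, a contactin, stood at 526 and 460 CPM against 128 and 90.9 and 41.3 and 48.2 CPM, higher by 2.27 ± 0.15 and 3.67 ± 0.15. Dscam was at 56.4 and 35.4 CPM, higher by 2.22 ± 0.26 and 3.07 ± 0.31. Of members named after their values were seen, the sidekick genes Sdk1 (52.3 and 56.9 CPM, 3.47 ± 0.30 and 3.49 ± 0.32) and Sdk2 (74.9 and 86.2 CPM, 2.74 ± 0.23 and 3.28 ± 0.26), which encode immunoglobulin-family adhesion proteins of retinal layers, were higher against both sets. Nrxn3, a neurexin, was the most abundant of the list at 570 and 644 CPM, with −0.51 ± 0.15 and −0.08 ± 0.10. Cdh9, a classical cadherin, was low at 11 and 5.39 CPM against 207 and 224 CPM in the Htr3a set (−4.39), and Cdh8 at 11.6 and 9.23 CPM against 409 and 348 CPM in the Cck set (−5.02 ± 0.17).

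Of the 20 energy genes tested, 4 were higher and 8 lower than in the Htr3a set, and 4 and 6 against the Cck set. Gapdh stood at 5503 and 5005 CPM and Aldoa at 2052 and 2134 CPM, and both missed the threshold of both tools against both sets. Ckb, a creatine kinase, was at 4369 and 4314 CPM, with −0.44 ± 0.23 and −0.29 ± 0.09; edgeR called the second only and DESeq2 the first only. Cox8a, a subunit of respiratory complex IV, was higher at 1636 and 1989 CPM against 1189 and 1223 and 1266 and 1409 CPM (0.71 ± 0.17 and 0.58 ± 0.10). Ldha, a lactate dehydrogenase gene named after its values were seen, was at 451 and 403 CPM against 1098 and 720 CPM in the Htr3a set (−0.95 ± 0.15).

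Of immediate early and heat shock genes, 5 of 13 were lower than in the Htr3a set, and 5 were lower and 1 higher of 12 against the Cck set. Egr1, an activity-induced gene named after its values were seen, stood at 20.5 and 21.5 CPM against 337 and 716 CPM and 93.4 and 214 CPM (−4.30 ± 0.17 and −2.47 ± 0.18). Fos, at −0.18 ± 0.14 and −0.17 ± 0.13, passed against neither set. The class I genes H2-D1 and H2-K1, whose near-identical sequences can split reads uncertainly, were lower than in the Cck set by −1.24 ± 0.16 and −2.02 ± 0.20, where microglia markers summed to 350 CPM in Muller and 20 CPM in MullerControl; the part of microglia was not tested. Meg3, a nuclear noncoding RNA, was higher at 1133 and 933 CPM (0.83 ± 0.16 and 1.20 ± 0.10).

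Over all genes, differences were named among called genes outside the rule, past a level limit and with the same direction in both libraries. The 10 most positive from the Htr3a set were 5730419F03Rik, A230077H06Rik, Kcnmb2, Gm534, Slc5a8, Dusp4, Adamts5, Ano3, Tmem196 and Slco5a1, from 7.79 down to 5.98. Kcnmb2, a beta subunit of the channel that Kcnma1 encodes, stood at 68.2 and 83.1 CPM against 0.470 and 0 CPM in the Htr3a set and was also among the 10 of the Cck set. Dusp4, a phosphatase of MAP kinases, stood at 309 and 235 CPM against 3.76 and 2.67 CPM (6.47 ± 0.26), and Adamts5, a matrix protease, at 281 and 335 CPM against 5.17 and 1.34 CPM (6.26 ± 0.25). Gm534 stood at 241 and 222 CPM against 1.88 and 0 CPM. Where a set had 0 UMIs in 1 library, the fitted difference depends on the prior count. The most negative differences were those of Wfdc1, Ifitm10, Gm32585, Fn1, Hs3st4, Medag, Egr3, Ngfr, Cdh9 and BC046251, from −6.23 to −4.34. Fn1, the fibronectin gene, was at 6.94 and 0.770 CPM against 161 and 214 CPM, and Ngfr, the p75 neurotrophin receptor gene, at 5.78 and 7.70 CPM against 160 and 126 CPM (−4.42 ± 0.22).

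Against the Cck set the 10 most positive were Mdga1, Kcnmb2, Slc4a4, Lrrtm4, Fam13c, Tpbg, Cep112, Tmem196, Il1rap and Gm534, from 7.24 to 4.89. Lrrtm4, a postsynaptic organiser known at rod bipolar terminals, stood at 229 and 245 CPM against 4.89 and 6.03 CPM (5.61 ± 0.23), and Mdga1, a membrane-anchored regulator of synapse formation, at 62.7 and 69.3 CPM against 0.543 and 0 CPM. The most negative were Irx6, Esam, A330008L17Rik, Chrna6, Arhgap18, Vsx1, Lhx3, Sema3d, Cdh8 and Grin3a, from −6.11 to −4.55. Chrna6, a nicotinic receptor subunit, stood at 2.31 and 1.54 CPM against 127 and 102 CPM (−5.66 ± 0.29). At least 4-fold differences from both sets, a limit chosen after the data were seen, were found for 160 higher genes and 31 lower genes, which include 4 rule genes (Prkca, Sebox, Car8 and Vstm2b) on the higher side and Kcng4 on the lower. Kcnmb2, Tmem196 and Gm534 were named in the higher direction against both sets.

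**Figure D4:**
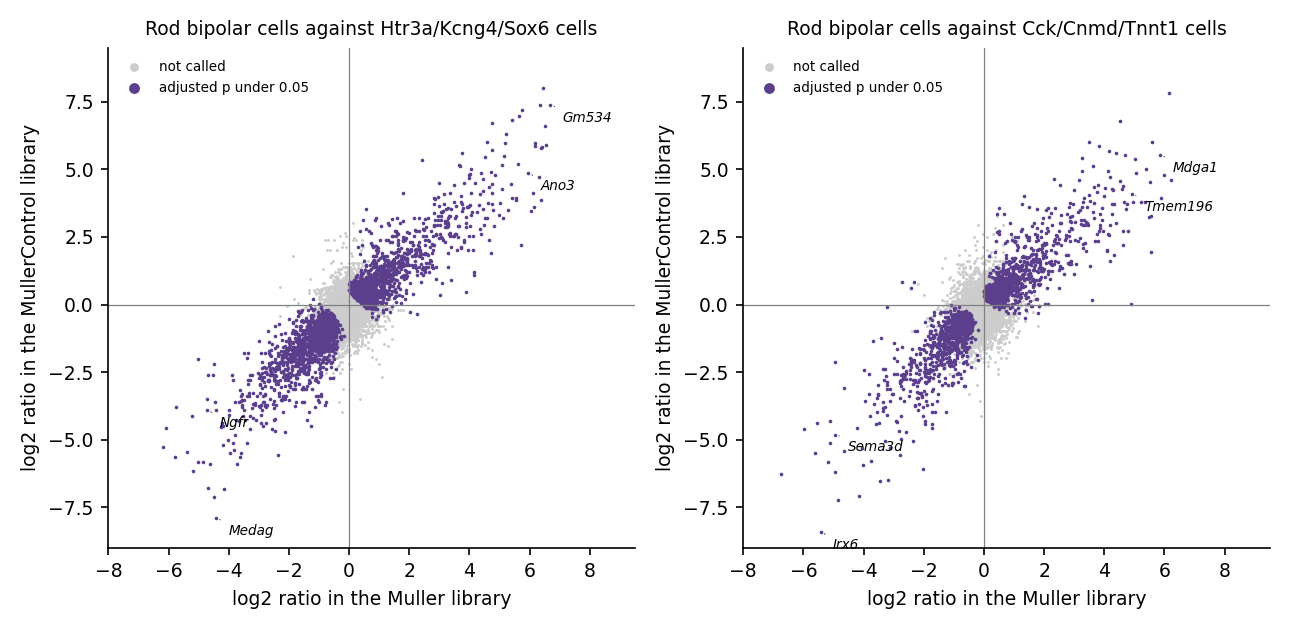
Log2 ratio of rod bipolar cells over the Htr3a set (left) and the Cck set (right) in the Muller library (x axis) and in MullerControl (y axis), 1 point per gene, purple where the edgeR adjusted p was under 0.05. Of the called genes, 2683 of 2718 and 1886 of 1921 lie on the same side of 0 in both libraries.

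Markers of other cell types were present in the rod bipolar sums at low levels that differed between the libraries. Rod markers summed to 4653 CPM in Muller and 6782 CPM in MullerControl, and cone markers to 460 and 1195 CPM. Müller glia markers summed to 677 and 292 CPM and amacrine markers to 297 and 102 CPM, while in rods the same lists summed to 863 and 367 CPM and to 198 and 36 CPM. Ganglion cell markers summed to 22.3 and 13.1 CPM, with Slc17a6, Pou4f1, Isl2 and Nrn1 at 0 UMIs in both libraries. In rods, the rod markers summed to 84739 and 89052 CPM and the cone markers to 1782 and 3192 CPM. Thus rod and cone RNA was higher in MullerControl, and Müller glia and amacrine RNA in Muller, both in rod bipolar cells and in rods. The lists moved with the library and their part in the ratios below was not tested.

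The library ratio was then taken within rod bipolar cells, as the log2 of Muller over MullerControl. Of 10632 genes with at least 20 UMIs, 833 (7.83%) were at least 1.5-fold higher in Muller and 669 (6.29%) at least 1.5-fold lower, with a median of −0.01. The counting interval lay off 0 for 393 and 287 of them. None of the 10 rod bipolar genes outside the rule passed 1.5-fold over all rod bipolar cells, with a median of −0.06. Tpbg had a ratio of 0.48 (0.31 to 0.66) and Strip2 of −0.51 (−0.70 to −0.32), so their intervals lay off 0 in opposite directions. In the upper range 1 of the 10 was at least 1.5-fold lower in Muller, Strip2, at 214 CPM against 340 CPM in MullerControl. In the low range Strip2 went the other way, at 115 and 61.5 CPM.

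Of 10 ON cascade genes measured outside the rule, 0 were at least 1.5-fold higher and 1 was lower, with a median of −0.10. The 1 was Rgs9bp, at −0.84 (−1.18 to −0.48). Gng13 stood at −0.37 (−0.42 to −0.32). Transcription factors gave 3 higher and 1 lower of 18, release genes 1 and 1 of 24, receptors 1 and 0 of 13, channels 3 and 1 of 16, and adhesion genes 4 and 0 of 23. Energy genes gave 2 and 0 of 20, heat shock and immediate early genes 1 and 1 of 13, and calcium genes 3 and 0 of 16. These counts stand beside 7.83% higher and 6.29% lower over all genes, and leave out the genes of the rule.

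Marker lists of other classes moved further. Of Müller glia markers outside the rule, 6 of 7 were at least 1.5-fold higher in Muller and 0 lower, with a median of 1.28, and of amacrine markers 9 of 10, with a median of 1.91. Of rod markers 6 of 12 were lower in Muller and 0 higher (median −0.53), and of cone markers 7 of 7 were lower (median −1.08), or 4 of 7 in the upper range. Single cells weighed on the cone markers, with 1 cell holding 50.0% of Opn1sw UMIs in Muller. Without the top MullerControl cell of each gene, the ratios of Opn1sw, Pde6h, Arr3 and Gngt2 were −2.67, −0.69, −0.80 and −0.74. Pde6h reversed once cells of the highest doublet scores were left out.

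**Figure D5:**
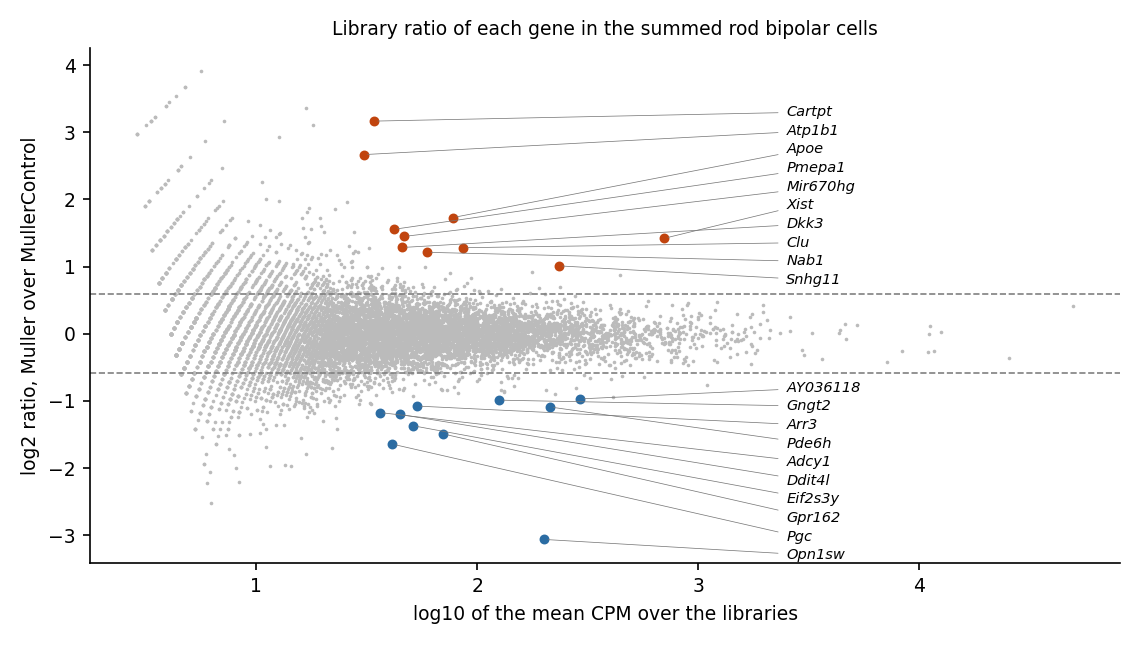
Log2 ratio of Muller over MullerControl (y axis) against the log10 of the mean CPM over the libraries (x axis) in the summed rod bipolar cells, 1 grey point per gene with at least 20 UMIs, dashed lines at 1.5-fold and the named genes coloured. The points centre on 0 (median −0.01), with Cartpt (3.17) and Opn1sw (−3.06) as the most extreme of the named genes.

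Of single genes named by rule, Cartpt, a neuropeptide gene, had the most positive ratio, with 61.8 CPM in Muller and 6.16 CPM in MullerControl (3.17, 2.32 to 4.56). One cell held 28.0% of its UMIs in Muller, and without that cell the ratio was 2.70. Atp1b1, the beta1 subunit of the sodium pump, stood at 53.5 and 7.70 CPM (2.67, 1.89 to 3.88), with 3.72 in rods. Its upper-range ratio of 3.99 (2.46 to 10.3) rested on 84 UMIs in Muller and 1 in MullerControl. Apoe, a lipid carrier abundant in Müller glia and part of the rule's upper limit, stood at 120 and 35.4 CPM (1.73, 1.32 to 2.23), with 1.37 in rods. Pmepa1, a membrane protein that restrains TGF-beta signalling, stood at 63.0 and 20.8 CPM (1.55, 1.02 to 2.23). Its upper-range ratio of 3.36 (2.02 to 6.99) rested on 81 and 2 UMIs. The ratios of these 4 were also above 0 in the Htr3a set, the Cck set and rods, the smallest being 0.13 for Pmepa1 in the Cck set. The other positive ratios named by the rule were Mir670hg (1.45), Dkk3 (1.28), Clu (1.28), Nab1 (1.21) and Snhg11 (1.01, or 1.56 in the upper range). For Dkk3 the upper-range ratio was 2.99 (1.79 to 5.70), on 84 and 3 UMIs.

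Also named was Xist. This X-inactivation RNA, made in female cells, stood at 1021 and 381 CPM (1.42, 1.29 to 1.56), and Eif2s3y, a Y-linked gene, at 28.6 and 73.9 CPM (−1.37, −1.79 to −0.95). Both genes had ratios of the same sign in the Htr3a set (1.06 and −1.51), the Cck set (1.69 and −1.33) and rods (1.38 and −1.04). The labels do not give the sex of the mice, and the part of a different mix of sexes in the other ratios was not tested.

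The most negative ratio among named genes was that of Opn1sw, the short-wave cone opsin, at 42.8 CPM in Muller and 359 CPM in MullerControl (−3.06, −3.34 to −2.80), with −3.83 in the upper range. One cell held 50.0% of its UMIs in Muller and another 24% in MullerControl, and 61 and 31 cells had any. Gpr162, an orphan receptor gene, stood at 36.7 and 103 CPM (−1.49, −1.85 to −1.13), with −1.53 in the upper range and −1.04, −1.45 and −0.47 in the Htr3a set, the Cck set and rods. Adcy1, a calcium-stimulated adenylyl cyclase, stood at 22.3 and 50.0 CPM (−1.17), with −1.69 in the upper range, −0.09 in the Htr3a set, −0.67 in the Cck set and −0.24 in rods; the difference between cell sets was not tested. Pde6h, a cone phosphodiesterase subunit, stood at 136 and 289 CPM (−1.09), with 0.16 once cells of the highest doublet scores were left out, and single cells held 24.2% and 24.5% of its UMIs. The rest were Pgc (−1.64, or −2.32 in the upper range), Ddit4l (−1.20, or −0.42), Arr3 (−1.08), Gngt2 (−0.99) and AY036118 (−0.97), of which Arr3 was −0.18 in the upper range.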

How the data were processed

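UMI counts per gene and barcode for 2 libraries were used as deposited, as whole-number counts in filtered matrices of 32285 features. Cell Ranger 4.0.0, Seurat 4.0.5, mm10 and GRCh38 are named, per the submitters' processing notes, without roles. The labels name 2 versions of the 10x 3′ kit. Cells were selected, summed and thinned in Python 3.11.15 (scanpy 1.11.5, scipy 1.17.1). Sums were compared with edgeR 4.0.16 (filterByExpr, TMM, quasi-likelihood test, library block, Benjamini-Hochberg over all genes tested) and DESeq2 1.42.0 (R 4.3.3), after tests on simulated data. Library ratios had 1 count added to each sum. Cell members and gene lists were chosen with earlier results of these data known. Genes were named by rule: rule genes and markers, and in each list up to 4 of highest level and 2 of largest library ratio. The 10 highest and 10 lowest library ratios were named among genes with at least 100 UMIs, and 50 CPM in 1 library. For each set comparison, the 10 highest and 10 lowest differences were named among genes outside the rule with an adjusted p under 0.05. These genes also had the same direction in both libraries and at least 50 CPM in 1 set. Some genes that the naming rule selects are not reported here. Alternatives were other UMI, mitochondrial and gene limits, scaling, no library block, each library alone, thinning, and removal of the highest Scrublet scores.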

Additional observations from a re-analysis of the deposited data

Results flagged for a closer look

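Cells beyond the depth and mitochondrial limits also met the gene limits for rod bipolar cells. Above 20% mitochondrial UMIs, 60 of 159 cells in Muller (37.7%) and 73 of 323 in MullerControl (22.6%) did so, with median sums of 5 and 7 UMIs of the 4 rule genes, and 3 and 15 of them reached 10 UMIs. Under 1000 UMIs there were 8 of 3819 and 8 of 2635.

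Some genes differed from a comparison set in opposite directions in the 2 libraries, each with a counting interval off 0; the difference between libraries was not tested. Against the Htr3a set these were Pdc (−0.19 in Muller and 0.45 in MullerControl), Atp5b (−0.12 and 0.14), Pde6g (−0.15 and 0.17) and Grik1, a kainate receptor of OFF bipolar cells (0.42 and −1.43). Against the Cck set they were Rp1 (−0.23 and 0.45), Pdc (−0.19 and 0.36), Cnga1 (−0.29 and 0.54), Gnb3 (−0.075 and 0.15) and Pde6g (−0.21 and 0.27). The rod genes Pdc, Pde6g, Rp1 and Cnga1 were lower than in the comparison set in Muller and higher in MullerControl.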

How the results depend on the processing

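Shares of passing cells were 8.58% in Muller and 2.77% in MullerControl with 6 UMIs of the rule genes as minimum, 15.1% and 5.47% with 2000 UMIs per cell, 9.24% and 2.78% with at most 10% mitochondrial UMIs, and 6.87% and 2.16% with 10 UMIs of the rule genes, a limit chosen after seeing the data. Shares of ON bipolar cells were 21.8% and 22.3% with 6 UMIs, 17.4% in each library with 10 UMIs, and 30.1% in Muller with 2000 UMIs per cell. The share of genes at least 1.5-fold lower in Muller was 10.8% after thinning, 2.07% among genes with 100 UMIs and 15.4% with no low-count filter, and the share higher was 2.98% with 100 UMIs. Pde6h turned to 0.16 without the highest Scrublet scores. Without thinning, Tpbg was seen in 61.9% and 56.8% of rod bipolar cells and, in MullerControl, in 0.163% of rods.

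Higher and lower calls against the Htr3a set were 483 and 418 with DESeq2 and 409 and 456 after thinning, and 853 higher without TMM. Against the Cck set they were 318 and 247 with DESeq2 and 360 and 332 after thinning, with 1447 lower without TMM. Medag and Grin3a missed the threshold with DESeq2. Of the 40 differences named from the 2 comparisons, 16 lay beyond the main interval in Muller alone and 32 in MullerControl alone. The single-library value was a log2 ratio of sums with 1 count added and no TMM scaling, so it is another measure than the edgeR fit. For Kcnmb2 against the Htr3a set, both libraries (6.19 and 5.97) lay below the fit (7.56). None of the 40 differences could change direction in a single library, because the naming rule required the same direction in both. No paired analysis beyond the library block was possible because each group holds 1 library; leaving the block out gave 639 higher and 551 lower genes against the Cck set. The cause was not tested in any of these cases. With 1 library per group, animal, sort and library effects cannot be told apart from the virus.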
